A study of Homo sapiens with 6 samples.

Results

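The genes examined here build and remodel the extracellular matrix, and they were followed in A549 cells with and without siRNA knockdown of CEP20, a centrosomal protein. The 48 members were given by name. They comprise 7 laminin chains, 6 type IV collagen chains, 9 other collagen chains, 8 glycoproteins and proteoglycans, 4 matrix metalloproteinases (MMPs), 3 tissue inhibitors of metalloproteinases (TIMPs), 4 ADAM and ADAMTS proteases, 4 collagen-modifying enzymes, urokinase with its receptor, and the hyaluronan receptor CD44. All 48 were found among the 60624 gene rows of the expression table, by a rule that names genes and uses no measured value. The list was, however, chosen with earlier results of these data known, so its shares are not independent of these data. The A549 line, derived from a human lung adenocarcinoma, was the only cell material, and all of its cultures received siRNA. The siCEP20 group (n = 3) carried siRNA against CEP20 and the siCTR group (n = 3) a control siRNA, with transfection lasting 3 days per the labels. Neither the labels nor the methods say which of the study's siRNAs was sequenced, and one label field speaks of a plasmid instead of siRNA. No label says that replicates were separate cultures, so each p-value measures the spread between these libraries, which may be technical.

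The matrix around epithelial cells has a basement membrane, in which laminin trimers and a type IV collagen network are tied together by nidogen and perlecan, and an interstitial matrix of fibrillar collagens and fibronectin. Cells attach to both through integrins, CD44 and other receptors. Collagen is hydroxylated by PLOD enzymes inside the cell and crosslinked by LOX enzymes outside it. MMPs and the plasmin that urokinase (PLAU) generates at its receptor (PLAUR) degrade matrix, while TIMPs hold the MMPs in check, and tumor cells use this machinery when they invade.

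CEP20 was lower in the siCEP20 libraries, at 15.3 to 17.3 TPM against 29.2 to 35.1 TPM in the siCTR libraries (log2 fold change -0.92, standard error 0.0915, limma adjusted p = 0.000205). TPM relates the abundance of a transcript to its length and to the sum of the library, and all 6 libraries sum to 1000000, so that read depth is unknown. All 9 epithelial and A549 markers reached 1 TPM in at least one library. Of 8 fibroblast markers 1 did, THY1, at 6.67 to 9.08 TPM in siCTR and 13.3 to 15.0 TPM in siCEP20 libraries, while COL1A2 and DCN were listed at 0 in all 6 libraries. The summed fibroblast markers were at 7.07 to 9.40 TPM in siCTR and 13.8 to 15.9 TPM in siCEP20 libraries, and their part in the results was not tested. None of 4 endothelial markers reached 1 TPM. Of 4 leukocyte markers CD14 and LYZ did, CD3E was listed at 0 in every library, and their sum was 8.40 to 11.7 TPM in siCTR and 7.20 to 9.82 TPM in siCEP20 libraries. The siCTR replicate 1 library had the smallest size factor (0.906, with the others at 0.964 to 1.08) and was the lowest control for 33 of the 43 members tested. That count has no share of all tested genes beside it, as none was computed. Over all 14778 genes whose mean reached 1 TPM, the log2 fold change had a median of 0.13, which became 9.4e-05 under median-of-ratios scaling. The member median and the value of COL1A1 are therefore also given relative to that shift.

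The metalloproteinase MMP24 and the collagen chain COL1A1 rose most among the members after CEP20 knockdown. At the deposited scale 26 of 43 tested members rose, a count that depended on the scaling. Urokinase (PLAU) and TIMP1, which count among the abundant members, fell. Fold changes were fitted with limma on log2(TPM + 1), which understates changes of low genes, and calls required an adjusted p below 0.05 together with a fold change above 1.5 or below 0.67. Of the 48 members, 43 passed the filter of a mean of 1 TPM and 5 did not (COL13A1, COL17A1, LAMA4, TIMP3 and ADAMTS1). Called higher were 10 members (23.3% of 43), namely MMP24, COL1A1, SPOCK1, FN1, COL5A1, MMP15, LOX, COL12A1, ADAM9 and CD44, where 11.2% of all tested genes were called higher. Called lower was 1 member, PLAU (2.33%), where 4.61% of all tested genes were called lower. By adjusted p alone, 26 members were higher (60.5%, against 30.2% of all tested genes) and 2 were lower (4.65%, against 13.2%), and 15 did not pass. All 3 siCEP20 values lay above all 3 siCTR values for 30 members (69.8%, against 38.4% of all tested genes) and below them for PLAU, TIMP1 and COL6A2 (6.98%, against 17.0%). The groups overlapped for the other 10. The median log2 fold change of the 43 members was 0.37, which is 0.23 above the median of all tested genes. Of the 43 values, 36 were above 0 and 31 above the median of all tested genes. In bulk samples such as these, fewer cells with a transcript and less of it per cell cannot be told apart.

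How many members were called rested on the scale between libraries. With libraries scaled by medians of ratios, 2 members were called higher (4.65%, against 6.05% of all tested genes) and 1 lower (against 7.46%). The adjusted p alone then gave 18 higher and 6 lower members, with a member median of 0.23 and a median of all tested genes near 0. The 6 lower members were PLAU, TIMP1, COL6A1, COL6A2, LAMB1 and ADAM17. Correcting for transcript length and GC also left 2 members called higher (against 6.08% of all tested genes) and 1 lower (against 5.99%), and its member median was 0.12. By adjusted p it gave 15 higher and 9 lower members, the same 6 with LAMA5, LAMB2 and COL4A2. Shares of all tested genes by adjusted p alone were not computed for these 2 settings. The counts of 18, 6, 15 and 9 members therefore have no background beside them. COL1A1, MMP24 and PLAU were called in the same direction with the deposited TPM and in all 14 alternatives run.

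**Figure D1:**
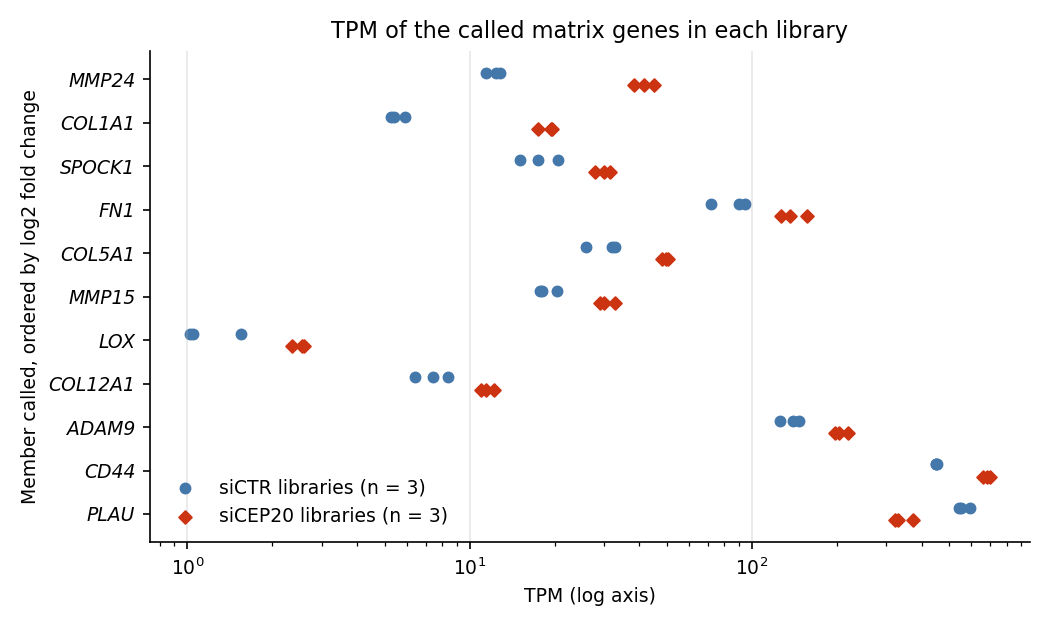
TPM of the 11 called members (rows) in each library, on a log axis, with circles for the 3 siCTR and diamonds for the 3 siCEP20 libraries. The groups do not overlap in any row. COL1A1 and MMP24 show the widest gaps, PLAU is the only row with its diamonds to the left, and CD44 and PLAU are the most abundant genes shown.

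Laminins are trimers of an alpha, a beta and a gamma chain. In siCTR libraries the chains LAMA5, LAMC1 and LAMB1 were more abundant than LAMB2, LAMA3 and LAMB3, without overlap between the first 3 and the last 3. LAMB3, the beta chain of the epithelial laminin that anchors hemidesmosomes, had the smallest adjusted p of the group. It was at 16.1, 16.2 and 15.4 TPM in siCTR and 23.7, 22.9 and 23.5 TPM in siCEP20 libraries, so that the groups were well apart against their narrow spread (log2 fold change 0.53, standard error 0.0701, limma adjusted p = 0.000736). LAMA3, the alpha chain of the same trimer, rose from 32.1, 39.0 and 42.4 TPM to 50.5, 51.3 and 46.0 TPM (log2 fold change 0.38, limma adjusted p = 0.0196), a p that was lost with the length and GC correction (log2 fold change 0.11, limma adjusted p = 0.279), with median-of-ratios scaling (0.0601) and without siCEP20 replicate 1 or siCEP20 replicate 2 (up to 0.066). LAMA5, the most abundant laminin chain, was at 241, 274 and 280 TPM in siCTR and 280, 290 and 265 TPM in siCEP20 libraries, with overlapping groups (log2 fold change 0.07, adjusted p = 0.421 from limma). LAMC1, which pairs with most alpha and beta chains, rose from 159 ± 11.1 to 190 ± 5.77 TPM (SD, n = 3), with a log2 fold change of 0.25 and a limma adjusted p of 0.014 that was lost with median-of-ratios scaling (0.101), with the length and GC correction (0.927) and without siCEP20 replicate 2 (0.0523). LAMB1 and LAMB2 had log2 fold changes of -0.05 and 0.03 and did not pass at the deposited scale. In all, 3 of the 6 tested laminin chains rose by adjusted p, where 30.2% of all tested genes did. They were the same 3 that had an unadjusted limma p under 0.05. None of the 6 was called, where 11.2% of all tested genes were called higher. The summed laminin chains were at 674 ± 48.2 TPM in siCTR and 735 ± 25.5 TPM in siCEP20 libraries, and this difference turned to -0.03 on the log2 scale with median-of-ratios scaling.

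Type IV collagen, the network-forming collagen of basement membranes, is encoded by 6 genes in 3 pairs whose members start back to back on opposite strands. The start sites of the canonical transcripts lie 127 bases apart for COL4A1 and COL4A2, 419 for COL4A3 and COL4A4, and 1416 for COL4A5 and COL4A6. The pairs differed widely in level. COL4A2 was the most abundant chain, at 77.7, 80.1 and 85.0 TPM in siCTR and 85.5, 87.2 and 82.1 TPM in siCEP20 libraries, with overlapping groups (log2 fold change 0.07, adjusted p = 0.393 from limma). Its partner COL4A1 was at 26.1, 29.0 and 29.2 TPM and then at 31.6, 34.1 and 33.0 TPM, without overlap (log2 fold change 0.22, limma adjusted p = 0.0406). Within the least abundant pair, COL4A4 was at 2.51 to 2.69 TPM in siCTR and 3.42 to 4.28 TPM in siCEP20 libraries and had the smallest adjusted p of the 6 chains (log2 fold change 0.41, limma adjusted p = 0.0335), and COL4A3 was at 1.06 to 1.88 TPM and 2.02 to 3.22 TPM (log2 fold change 0.55, limma adjusted p = 0.051). COL4A3 passed and was called without siCTR replicate 2 or siCEP20 replicate 1, where its log2 fold change came to as much as 0.67. COL4A5 and COL4A6 had log2 fold changes of 0.22 and 0.15 and did not pass, except COL4A5 without siCTR replicate 3. By adjusted p 2 of the 6 chains were thus higher, where 30.2% of all tested genes were. These 2 passes were fragile, as COL4A1 stayed under an adjusted p of 0.05 in 4 of 14 alternatives and COL4A4 in 3 of 13. Of the fits that left out a library, COL4A1 passed only without siCTR replicate 3 (adjusted p up to 0.121 in the limma fits without one of the others) and COL4A4 only without siCEP20 replicate 3 (up to 0.112). No type IV chain was called by limma, although 3 had an unadjusted p under 0.05 (COL4A1, COL4A3 and COL4A4), and their sum (146 ± 8.84 TPM in siCTR, 162 ± 4.07 TPM in siCEP20 libraries) had a log2 ratio of 0.15 that came to -0.0017 with median-of-ratios scaling.

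Among the other collagens 3 chains of fibrils or their surface, COL1A1, COL5A1 and COL12A1, were called higher. COL1A1, the major chain of type I collagen (ENSG00000108821, minus strand of chromosome 17, positions 50184101 to 50201632 of hg38), was at 5.39, 5.90 and 5.27 TPM in siCTR and 19.5, 19.6 and 17.5 TPM in siCEP20 libraries. Every siCEP20 library was about equally high, and the mean rose 3.42-fold, from 5.52 ± 0.333 to 18.8 ± 1.15 TPM (SD, n = 3). Its log2 fold change was 1.61 (standard error 0.0912, limma adjusted p = 3.12e-05), and 1.48 relative to all tested genes. COL1A2, which encodes the second chain of the type I collagen trimer, was listed at 0 in all 6 libraries. COL5A1, a chain of the type V collagen that starts fibrils, rose from 25.8, 32.9 and 32.1 TPM to 47.9, 49.8 and 50.3 TPM (log2 fold change 0.69, standard error 0.0963, limma adjusted p = 0.000888). Its partner chain COL5A2, no member, was at 173 to 202 TPM in siCTR and 238 to 262 TPM in siCEP20 libraries (log2 fold change 0.39, limma adjusted p = 0.00323). COL12A1, which coats fibrils, rose from 6.40, 7.39 and 8.36 TPM to 11.4, 11.02 and 12.2 TPM (log2 fold change 0.59, limma adjusted p = 0.00365). Its call fell away without siCTR replicate 1 or siCEP20 replicate 3, and the log2 fold change ranged from 0.50 to 0.67 as each library was left out.

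Of the remaining collagens, COL7A1, which forms the anchoring fibrils beneath epithelia, was the most abundant. It rose from 143, 156 and 152 TPM to 204, 211 and 186 TPM without being called (log2 fold change 0.41, standard error 0.0652, limma adjusted p = 0.00168), but did not pass after the length and GC correction (log2 fold change 0.12, limma adjusted p = 0.0981). COL18A1, a basement membrane collagen, was at 122 to 130 TPM and 128 to 147 TPM (log2 fold change 0.12, adjusted p = 0.171 from limma). The type VI chains COL6A1 and COL6A2 had log2 fold changes of -0.05 and -0.15. COL6A2 was lower in all 3 siCEP20 libraries, at 30.9 to 31.6 TPM against 32.6 to 35.8 TPM, but did not pass (adjusted p = 0.111 from limma). With median-of-ratios scaling, quantile normalization and the length and GC correction it passed as lower, with log2 fold changes of -0.30, -0.28 and -0.32 (limma adjusted p = 0.00438, 0.00518 and 0.00367), and so did COL6A1, with -0.20, -0.19 and -0.25 (0.0232, 0.0272 and 0.00946). At the deposited scale, 4 of 7 tested member chains outside type IV rose by adjusted p, where 30.2% of all tested genes did. The other 3 did not pass.

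**Figure D2:**
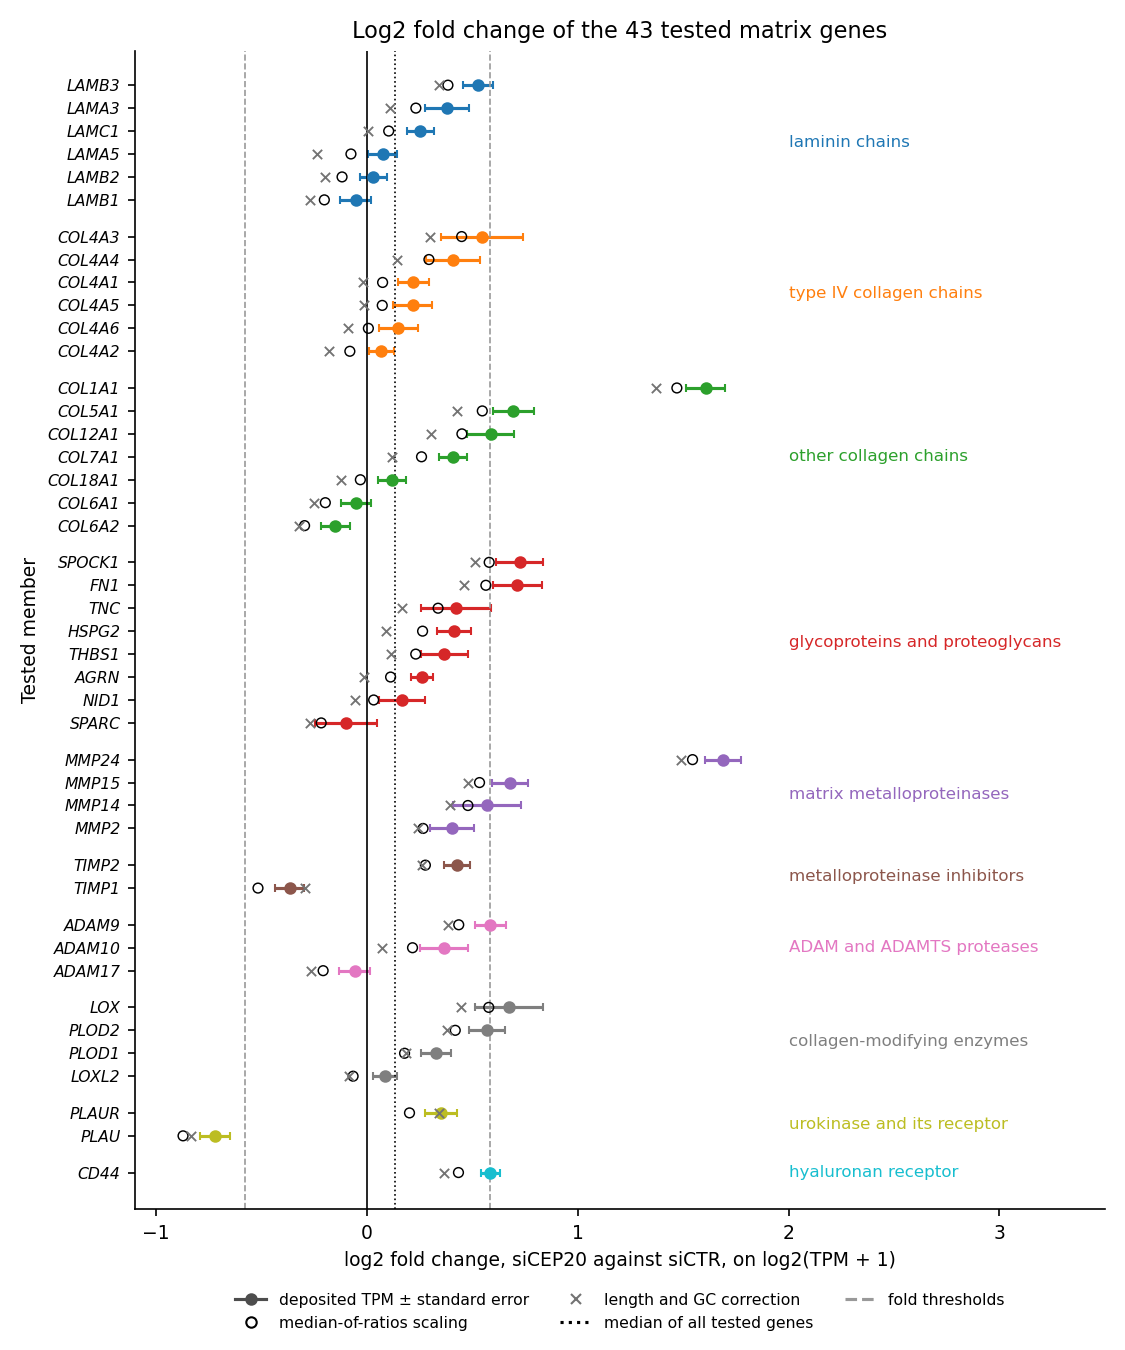
Log2 fold change (siCEP20 against siCTR, horizontal axis) of the 43 tested members in rows grouped by role, as filled points with standard errors, with open circles after median-of-ratios scaling and crosses after the length and GC correction. Dashed lines mark the fold thresholds and the dotted line the median of all tested genes. COL1A1 and MMP24 stand far to the right and PLAU to the left, and both other settings place most members further left.

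Fibronectin (FN1), the glycoprotein that integrins assemble into fibrils, and SPOCK1 (testican-1), a secreted proteoglycan, were called higher. FN1 was at 71.5, 90.3 and 94.3 TPM in siCTR and 127, 137 and 157 TPM in siCEP20 libraries (log2 fold change 0.71, standard error 0.116, limma adjusted p = 0.00184). The highest control thus lay below the lowest knockdown library, and siCTR replicate 1 was well under the other controls. Without that library the log2 fold change was 0.59. SPOCK1 rose from 15.1, 17.5 and 20.5 TPM to 27.9, 30.1 and 31.3 TPM and had the smallest adjusted p of the called members in the group (log2 fold change 0.72, standard error 0.112, limma adjusted p = 0.00145). Agrin (AGRN), a heparan sulfate proteoglycan and the most abundant gene of the group in siCTR libraries, was at 112, 116 and 111 TPM and then at 134, 140 and 133 TPM (log2 fold change 0.26, limma adjusted p = 0.00513). The pass of AGRN was lost with median-of-ratios scaling (log2 fold change 0.11, limma adjusted p = 0.112), and its direction turned with the length and GC correction (-0.01, limma adjusted p = 0.814). Perlecan (HSPG2) and thrombospondin 1 (THBS1) also rose, with log2 fold changes of 0.41 and 0.37 (limma adjusted p = 0.00452 and 0.0281), the latter a pass that held in 6 of 14 alternatives and was lost without siCTR replicate 1, siCEP20 replicate 1 or siCEP20 replicate 2 (up to 0.0885). The pass of HSPG2 was lost with the length and GC correction (0.09, limma adjusted p = 0.236). Nidogen (NID1), tenascin C (TNC) and SPARC did not pass, with log2 fold changes of 0.17, 0.42 and -0.10. The summed group went from 271 ± 20.7 to 376 ± 15.4 TPM.

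The 4 MMPs among the members rose by adjusted p at the deposited scale, where 30.2% of all tested genes did. Their summed TPM was 2.11-fold higher in siCEP20 libraries (40.9 ± 2.95 against 86.3 ± 3.74 TPM, SD, n = 3, two-sided exact permutation p = 0.1, the smallest value that 3 against 3 allow). MMP24, MMP15 and MMP14 are membrane-type MMPs, which act at the cell surface, and MMP2 is a secreted gelatinase that MMP14 activates. MMP24 (ENSG00000125966, plus strand of chromosome 20, positions 35226690 to 35276998 of hg38) was at 12.4, 11.4 and 12.8 TPM in siCTR and 38.4, 41.4 and 45.0 TPM in siCEP20 libraries. No other member was raised more on the log2 scale, at 1.69 (standard error 0.0855, limma adjusted p = 2.18e-05), and its mean TPM rose 3.41-fold. MMP15 rose from 17.8, 18.04 and 20.4 TPM to 30.1, 32.9 and 28.9 TPM and was called as well (log2 fold change 0.68, standard error 0.0849, limma adjusted p = 0.000555). MMP2 (8.30 to 9.93 TPM in siCTR, 11.3 to 13.0 TPM in siCEP20 libraries) and MMP14 (0.878 to 1.14 and 1.86 to 2.34 TPM) passed the adjusted p without the fold threshold, with log2 fold changes of 0.40 and 0.57 (limma adjusted p = 0.0144 and 0.0228). The pass of MMP2 was lost with median-of-ratios scaling, quantile normalization and the length and GC correction (limma adjusted p = 0.0536, 0.0745 and 0.0718) and without siCEP20 replicate 3 (0.0512). That of MMP14 was lost with quantile normalization and the length and GC correction (limma adjusted p = 0.0604 and 0.0748) and without siCTR replicate 2 or siCEP20 replicate 3 (up to 0.0718), whereas MMP14 crossed the fold threshold and was called without any one of the other 4 libraries. MMP24 thus made up most of the gain in the sum. MMPs outside the member list did not all move with these 4, as named here after their values were seen. MMP7 (19.2 to 20.7 TPM in siCTR, 28.3 to 33.2 TPM in siCEP20 libraries) and MMP25 rose without being called (log2 fold change 0.57 and 0.50, limma adjusted p = 0.00124 and 0.0312), while MMP17 and MMP28 did not pass (-0.07 and 0.21, limma adjusted p = 0.629 and 0.504). The pass of MMP25 held in 4 of 13 alternatives. It was lost with median-of-ratios scaling, quantile normalization and the length and GC correction (limma adjusted p = 0.0531, 0.068 and 0.1). The untested MMP9 (0.79 to 1.21 TPM in siCTR, at most 0.284 TPM in siCEP20 libraries) and MMP1 (0.245 to 0.346 and at most 0.0408 TPM) were low and lower in all 3 siCEP20 libraries.

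The exons of MMP24 overlap those of the opposite-strand gene MMP24OS over 806 bases. MMP24OS was at 49.998 to 51.7 TPM in siCTR and 74.4 to 90.5 TPM in siCEP20 libraries (log2 fold change 0.65, limma adjusted p = 0.00051). The paper's methods describe libraries from which the U-labeled second strand was removed, which keeps strand in the reads. Whether the quantification used strand is not given in the sources used here. The part of the overlap in the MMP24 value was not tested. Among the other called members, PLAU shares 915 exonic bases with C10orf55 (at most 1.97 TPM), LOX 138 with SRFBP1 and ADAM9 71 with TM2D2, each on the opposite strand. SRFBP1 rose (log2 fold change 0.65, limma adjusted p = 0.0038) and TM2D2 fell (-0.48, limma adjusted p = 0.00246). In all, 10 members overlapped an expressed gene in exons, 1 of them, LOXL2, on its own strand.

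TIMP1 and TIMP2, secreted inhibitors that bind MMPs, moved in opposite directions. TIMP1 fell from 289, 322 and 326 TPM to 227, 242 and 258 TPM, so that the highest knockdown library lay below the lowest control (log2 fold change -0.37, standard error 0.0695, limma adjusted p = 0.00383). TIMP2, which also takes part in the activation of MMP2 by MMP14, rose from 177, 174 and 179 TPM to 222, 237 and 256 TPM (log2 fold change 0.43, standard error 0.0615, limma adjusted p = 0.00104). Both kept their direction and their adjusted p under 0.05 in all 14 alternatives, and neither was called, since the fold changes stayed within 0.67 to 1.5. Their transcripts reached near parity. The ratio of TIMP1 to TIMP2 was 1.63, 1.85 and 1.83 in siCTR and 1.02, 1.02 and 1.01 in siCEP20 libraries (log2 difference -0.80, two-sided exact permutation p = 0.1, adjusted p = 0.1 over the 6 ratios computed). Such a ratio within a library does not depend on the scale between libraries, but it shows unequal change only. It can still depend on transcript length, which is 769 bases for TIMP1 and 3652 for TIMP2. After the length and GC correction the log2 fold changes were smaller, at -0.30 for TIMP1 and 0.26 for TIMP2, and the ratio was not computed there. The summed TIMPs were at 489 TPM in siCTR and 481 TPM in siCEP20 libraries, with overlapping groups (two-sided exact permutation p = 0.8). TIMP3 was under 0.4 TPM in every library.

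Among the member ADAM proteases, which shed cell surface proteins, ADAM9 was both the most abundant and the one called. It rose from 126, 141 and 147 TPM to 204, 219 and 197 TPM, all above the controls (log2 fold change 0.59, standard error 0.073, limma adjusted p = 0.00055). Its fold change lay just over the threshold, and the call was lost without siCTR replicate 1 or siCEP20 replicate 2, with log2 fold changes of 0.52 to 0.63 as each library was left out. ADAM10 was at 48.0 to 53.5 TPM in siCTR and 56.4 to 78.2 TPM in siCEP20 libraries (log2 fold change 0.36, limma adjusted p = 0.0322, a pass that held in 4 of 14 alternatives and in none of the 3 rescaled or corrected fits). When a library was left out, ADAM10 passed only without siCEP20 replicate 3, and its limma adjusted p was otherwise up to 0.102. ADAM17, which releases TNF and EGF receptor ligands, did not pass (-0.06, adjusted p = 0.555 from limma).

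Of the collagen-modifying enzymes, lysyl oxidase (LOX) was called higher and the lysyl hydroxylases PLOD2 and PLOD1 rose. LOX was low, at 1.04, 1.55 and 1.02 TPM in siCTR and 2.59, 2.54 and 2.36 TPM in siCEP20 libraries (log2 fold change 0.67, standard error 0.162, limma adjusted p = 0.0111). PLOD2, whose hydroxylation of collagen telopeptides directs crosslinking, was far more abundant and had the smallest adjusted p of the group. It rose from 184, 219 and 228 TPM to 308, 327 and 300 TPM, all above the controls (log2 fold change 0.57, standard error 0.0843, limma adjusted p = 0.00119). PLOD2 lay just inside the fold threshold and was called without siCTR replicate 2, siCTR replicate 3 or siCEP20 replicate 3, with log2 fold changes of up to 0.63. PLOD1 rose from 111 to 125 TPM up to 138 to 156 TPM (log2 fold change 0.33, limma adjusted p = 0.00745). LOXL2, a lysyl oxidase that acts on type IV collagen, was the most abundant of these enzymes, at 493, 544 and 528 TPM in siCTR and 528, 561 and 570 TPM in siCEP20 libraries, and did not pass (log2 fold change 0.09, adjusted p = 0.253 from limma).

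Urokinase and its receptor moved in opposite directions. PLAU (ENSG00000122861), the protease that converts plasminogen to plasmin, was at 553, 540 and 595 TPM in siCTR and 320, 330 and 374 TPM in siCEP20 libraries. All knockdown libraries lay well below all controls, and the mean fell from 563 ± 28.6 to 341 ± 28.3 TPM (SD, n = 3), or 60.7% of the control level. Its log2 fold change was -0.72 (standard error 0.0698, limma adjusted p = 0.000182), ranged from -0.87 to -0.68 over the 14 alternatives and was the only one of a member called lower. PLAUR, which holds urokinase at the cell surface, rose from 112, 123 and 126 TPM to 141, 154 and 166 TPM (log2 fold change 0.35, standard error 0.0756, limma adjusted p = 0.00677). The ratio of PLAUR to PLAU was 0.202, 0.228 and 0.211 in siCTR and 0.441, 0.468 and 0.443 in siCEP20 libraries (log2 difference 1.08, two-sided exact permutation p = 0.1, adjusted p = 0.1 over 6 ratios).

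**Figure D3:**
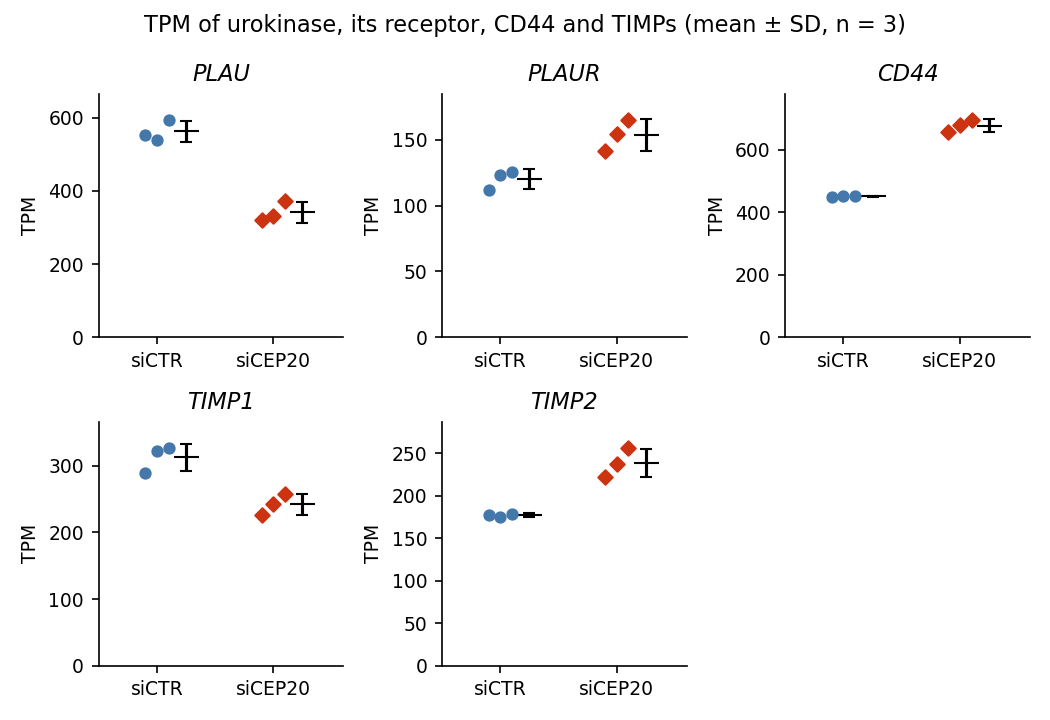
TPM (vertical axes, from 0) of PLAU, PLAUR, CD44, TIMP1 and TIMP2 in the 3 siCTR (circles) and 3 siCEP20 (diamonds) libraries, with the mean and SD beside the points. PLAU and TIMP1 are lower in all 3 siCEP20 libraries, the other 3 genes are higher, and TIMP1 and TIMP2 reach nearly the same level after knockdown.

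CD44, the receptor for hyaluronan, was the most abundant member in siCEP20 libraries. It was at 451, 451 and 453 TPM in siCTR and 657, 680 and 697 TPM in siCEP20 libraries. The 3 controls were nearly equal and all knockdown libraries lay far above them. Its log2 fold change of 0.59 (standard error 0.0449, limma adjusted p = 7.33e-05) lay so close to the fold threshold that the call was made in 8 of 14 alternatives and lost without siCTR replicate 1, siCTR replicate 2, siCEP20 replicate 2 or siCEP20 replicate 3. Over the fits that left out each library the log2 fold change went from 0.57 to 0.61, and its adjusted p stayed at or below 0.0015 in all alternatives. In siCTR libraries PLAU was the most abundant member, followed by LOXL2 and CD44, whereas in siCEP20 libraries the order was CD44, LOXL2 and PLAU. The values of PLAU and LOXL2 overlapped in siCTR libraries, and the other neighbours in these orders did not overlap.

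The promoters of PLAU, MMP24, FN1 and CD44 are shown because these genes carry the protease, fibronectin and receptor changes above. Each is the 250 bases before the start site in RefSeq (GRCh38.p14), read 5′ to 3′ on the strand of the gene, and 39 of the 48 members had an entry. The windows are chr10:73910882-73911131 (plus strand) for PLAU, chr20:35226440-35226689 (plus) for MMP24, chr2:215436069-215436318 (minus) for FN1 and chr11:35138921-35139170 (plus) for CD44. Capitals mark matches, on either strand, to the GC box GGGCGG, the CCAAT box spelled CCAAT, the TATA box core TATAA, the cAMP response element TGACGTCA or the AP-1 element TGANTCA.
PLAU: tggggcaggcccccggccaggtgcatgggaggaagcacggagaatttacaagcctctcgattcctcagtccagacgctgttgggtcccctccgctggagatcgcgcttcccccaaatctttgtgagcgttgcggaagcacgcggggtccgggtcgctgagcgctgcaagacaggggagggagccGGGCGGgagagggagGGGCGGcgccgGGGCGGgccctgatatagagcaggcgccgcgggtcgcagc
MMP24: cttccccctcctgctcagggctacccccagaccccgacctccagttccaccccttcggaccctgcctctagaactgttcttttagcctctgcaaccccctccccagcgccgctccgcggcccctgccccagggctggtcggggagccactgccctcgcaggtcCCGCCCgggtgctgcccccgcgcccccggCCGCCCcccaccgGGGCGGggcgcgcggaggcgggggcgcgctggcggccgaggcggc
FN1: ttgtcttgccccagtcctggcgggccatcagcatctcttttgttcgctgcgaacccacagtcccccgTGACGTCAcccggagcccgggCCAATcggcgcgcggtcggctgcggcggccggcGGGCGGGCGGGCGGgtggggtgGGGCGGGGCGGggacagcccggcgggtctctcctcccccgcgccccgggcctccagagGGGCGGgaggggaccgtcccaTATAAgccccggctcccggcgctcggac
CD44: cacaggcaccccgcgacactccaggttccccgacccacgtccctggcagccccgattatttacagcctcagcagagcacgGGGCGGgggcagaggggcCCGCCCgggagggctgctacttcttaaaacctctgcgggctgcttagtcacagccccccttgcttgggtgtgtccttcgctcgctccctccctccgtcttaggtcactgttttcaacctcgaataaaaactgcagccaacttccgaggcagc
GGGCGG was matched 3 times in PLAU, 3 times in MMP24, 6 times in FN1 and 2 times in CD44, with overlapping matches counted separately, and 42.6% of the 35116 promoter windows of this length held it. FN1 alone of the 4 also held CCAAT (in 32.0% of all windows), TATAA (18.9%) and TGACGTCA (1.65%). TGANTCA, in 6.57% of all windows, was not among the letters of these 4. PLAU, the gene that fell, and the 3 that rose thus shared only the GC box among the motifs searched.

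All 6 ratios computed between members were separate between the groups, in a design whose exact test cannot pass. Those of TIMP1 to TIMP2 and of PLAUR to PLAU are given above. LAMA5 exceeded LAMA3 by 7.04 ± 0.444 times in siCTR and 5.65 ± 0.117 times in siCEP20 libraries (SD, n = 3, log2 difference -0.31). The ratio of LAMB1 to LAMB3 went from 7.84 ± 0.625 to 5.15 ± 0.429 (log2 difference -0.61), with all 3 siCEP20 values below all 3 siCTR values. For COL4A2 to COL4A1 it went from 2.88 ± 0.11 to 2.58 ± 0.109 (-0.16). MMP14 remained far below TIMP2, with ratios of 0.00586 and 0.00848 (log2 difference 0.54). In each of these 4 ratios the groups were separate, which gives a two-sided exact permutation p of 0.1 and an adjusted p of 0.1 over the 6 ratios. The members together took 0.404% to 0.497% of each library, and their summed TPM was 4272 ± 211 in siCTR and 4868 ± 145 in siCEP20 libraries, a ratio of 1.14.

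The 5 members under a mean of 1 TPM were not tested in the fit. COL13A1, a transmembrane collagen, was at 0.944 to 1.41 TPM in siCTR and 0.403 to 0.846 TPM in siCEP20 libraries. LAMA4 was at 0.317 to 0.657 and 0.962 to 1.04 TPM, and COL17A1, a hemidesmosome collagen, at 0.456 to 0.587 and 0.619 to 0.963 TPM. These 3 had separate groups, and the two-sided exact permutation p was 0.1 for each. TIMP3 (at most 0.372 TPM) and ADAMTS1 (at most 0.182 TPM) had overlapping groups, with exact permutation p of 0.7 and 0.4, and no fold is given at levels this low.

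Matrix genes outside the member list were drawn from 7 further lists of 162 genes, of which 106 were tested. These lists, too, were chosen with earlier results of these data known. Called higher were 22 (20.8%, against 11.2% of all tested genes) and lower 2 (1.89%, against 4.61%). By adjusted p 52 were higher (49.1%, against 30.2%) and 12 lower (11.3%, against 13.2%). Their log2 fold changes had a median of 0.24. The glycoproteins and proteoglycans had 10 of 34 called higher and none lower. CCN1, a matricellular integrin ligand, rose from 85.6, 78.2 and 92.6 TPM to 224, 237 and 246 TPM (log2 fold change 1.46, limma adjusted p = 2.18e-05). TGFBI, a secreted adhesion protein, went from 1203, 1196 and 1364 TPM to 2326, 2450 and 2553 TPM (log2 fold change 0.96, limma adjusted p = 4.91e-05), and glypican 1 (GPC1), a heparan sulfate proteoglycan of the cell surface, from 88.1 to 92.3 TPM up to 159 to 181 TPM (log2 fold change 0.90, limma adjusted p = 5.22e-05). All 3 were higher in every siCEP20 library and stayed called after median-of-ratios scaling. Called lower were heparanase (HPSE), which cleaves heparan sulfate, at 2.08 to 2.31 and 0.827 to 1.09 TPM (log2 fold change -0.69, limma adjusted p = 0.00812), and the thrombospondin receptor CD47, at 35.6 to 46.5 and 20.1 to 34.7 TPM (-0.62, limma adjusted p = 0.0258). CD47 lost its call without siCTR replicate 1, siCTR replicate 3, siCEP20 replicate 1 or siCEP20 replicate 3, with a limma adjusted p of up to 0.0806. Some of the per-list shares lay near the 11.2% of all tested genes. Other proteases had 3 of 20 (15.0%) called higher (ADAM15, ADAM19 and ADAM12), other inhibitors 2 of 7, other collagen-modifying enzymes and chaperones 3 of 18, receptors 3 of 16, other basement membrane genes 1 of 8 (12.5%) and other collagen chains 0 of 3, of which 2 passed the adjusted p. Median-of-ratios scaling left 10 of the 106 called higher (9.43%, against 6.05% of all tested genes) and 5 lower (4.72%, against 7.46%).

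Matrix transcripts are long. The canonical transcripts of the tested members had a median length of 5650 bases and a GC content of 54.7%, against 2818 bases and 49.2% for all tested genes. Across the tested genes, which are not independent replicates and share libraries, Spearman's rho between log2 fold change and length was 0.25, and with GC content it was -0.10. Among the 43 members rho with length was 0.23. TIMP1 and PLAU, the members that fell, and PLAUR (1368 bases), which rose, have shorter transcripts than most members. After the length and GC correction PLAU was still called lower, and COL1A1 and MMP24 were still called higher. By adjusted p 15 members were then higher and 9 lower, with no share of all tested genes computed beside them. The part of transcript length in the members' fold changes was otherwise not tested.

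**Figure D4:**
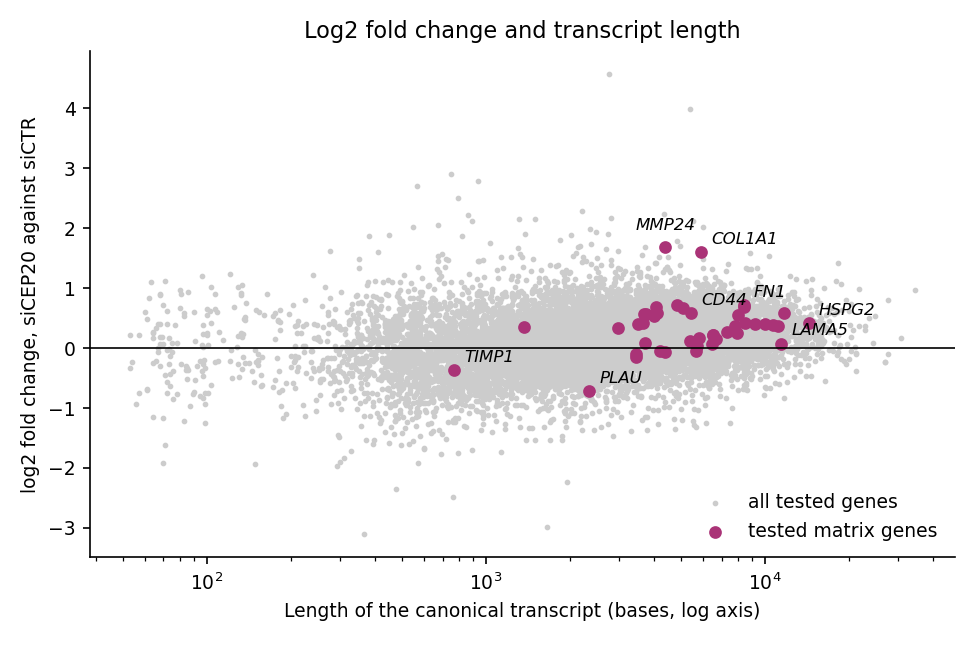
Log2 fold change (siCEP20 against siCTR, vertical axis) against the length of the canonical transcript (bases, log axis) for all tested genes with a length (grey) and the tested members (large points). Most members lie to the right of the bulk of the genes and above 0, COL1A1 and MMP24 lie above the other members, and TIMP1 and PLAU lie below 0 toward shorter lengths.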

How the data were processed

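Gene-level TPM values of 3 siCEP20 and 3 siCTR libraries of A549 cells were used. The authors trimmed reads with fastp 0.20.1, aligned them to hg38 with HISAT2 2.1.0 and quantified genes with StringTie 2.0 (versions per the submitters' processing notes), and deposited TPM in one table. The paper's methods describe removal of the U-labeled second strand, but the strand setting of the quantification is not given in the sources used here. TPM holds neither counts nor depth, so no counting interval was possible and precision rests on the replicates. The labels and the methods differ on medium, RNA kit and input.

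Genes were named with GENCODE 44 (60370 of 60624 rows). Values of log2(TPM + 1) were tested by limma (version 3.58.1, under R 4.3.3, moderated with an intensity trend) for 14778 genes whose mean reached 1 TPM, with Benjamini-Hochberg adjustment over all of them. Calls needed an adjusted p below 0.05 with a fold change above 1.5 or below 0.67, thresholds of the study. The study applied them to fits by the DESeq2 package, so its calls and those made here are not like for like. The script was tested on simulated data. Sums and ratios were compared with two-sided exact permutation tests in scipy 1.17.1. Alternatives used another pseudocount (0.1), no filter or one at 5 TPM, median-of-ratios scaling, quantile normalization, a length and GC correction (loess, span 0.5, 99.7% of tested genes), moderation lacking the trend, a block for the replicate number, and the omission of each library. Deviations from the group mean had correlations of 0.157, -0.0614 and -0.0623 between samples of one number. Between samples of unlike number they were -0.121 to 0.170. With 3 libraries per group this check cannot exclude pairing, and the main fit used no block.

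The members and lists were chosen with earlier results of these data known. Named were CEP20, all called members, in each role the most abundant member and the one with the smallest adjusted p, and of other matrix genes the 3 called higher and the called lower ones with the smallest adjusted p. Some genes that the rule named are not reported here. Further members, COL5A2 and overlapping genes were named after their values were seen.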

Additional observations from a re-analysis of the deposited data

How the results depend on the processing

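Median-of-ratios scaling, quantile normalization and the length and GC correction left 2, 4 and 2 members called higher and moved the median log2 fold change of the members to 0.23, 0.28 and 0.12. They gave 6, 4 and 9 members lower at the adjusted p, and the correction gave 15 higher. Shares of all tested genes at the adjusted p alone were computed for the deposited scale only. Over all tested genes they called 894, 923 and 896 higher, and the scaling called 1103 lower. Of the other matrix genes they called 10, 14 and 10 higher and 5, 4 and 5 lower. With a filter at 5 TPM 1 of those was called lower, and 37 members were tested. As each library was left out, the member median ranged from 0.30 (without siCTR replicate 1) to 0.42, called members from 8 to 12 higher with 1 lower, and other matrix genes called lower from 1 to 2. The summed members had a log2 ratio of 0.038 after median-of-ratios scaling.

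Directions turned for 10 members, of which AGRN and COL4A1 had passed at the deposited scale. With median-of-ratios scaling the log2 fold change was -0.0758 for LAMA5, -0.118 for LAMB2, -0.081 for COL4A2, -0.0312 for COL18A1 and -0.0656 for LOXL2, and the sums of laminin and type IV collagen chains came to -0.025 and -0.0017. With quantile normalization it was -0.0478 for LAMB2, -0.00599 for COL4A2, -0.0032 for COL4A6 and -0.0097 for NID1. With the length and GC correction it was -0.238 for LAMA5, -0.20 for LAMB2, -0.0168 for COL4A1, -0.179 for COL4A2, -0.0144 for COL4A5, -0.0892 for COL4A6, -0.122 for COL18A1, -0.0545 for NID1, -0.0144 for AGRN and -0.0874 for LOXL2. The summed TIMPs ranged from -0.0762 to 0.0214 as each library was left out. The cause of these shifts was not tested. With the replicate block 10 members were called higher and 1 lower, and 25 were higher at the adjusted p. The depth behind the TPM values is unknown, which limits what can be said of members near 1 TPM such as LOX, MMP14 and TNC.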
